A study of Rattus norvegicus with 8 samples.

Results

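Chronic stress with saline was set against the unstressed control in 2 brain areas, prefrontal cortex (PFC) and hippocampus, of male adult rats of the outbred Sprague-Dawley stock. The comparison was defined by its labels and holds 4 of the 8 RNA-seq libraries of the series, namely 1 PFC and 1 hippocampus library from each of the groups labelled saline and CMS+saline. CMS is the series' name for its stress protocol, called CUMS in the sample protocol. The remaining 4 libraries come from stressed rats given methylglyoxal (MGO) or luteolin, and they enter here as further values. Dosing is listed as 3 weeks for every group, with luteolin at 10 mg/kg. For MGO the design gives 5 mM/kg and the protocol 100 mM/kg, so its dose is unsettled. Per the labels, tissue was dissected in week 7 and about 30 mg was used for RNA. The protocol names 1 unstressed rat and 1 stressed rat given saline, so each group is a single animal seen in both tissues. The descriptions of both CMS + saline libraries start with a code that the other 6 libraries do not have. Stress, animal and code therefore cannot be told apart.

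In chronic mild stress models, rats are exposed to a changing series of mild stressors for weeks, and the animals are studied for depression-like behaviour. The PFC and the hippocampus are rich in receptors for glucocorticoids, the steroid hormones released under stress, and both take part in switching that hormone response off. Losses of dendrites and synapses in these areas are a well-known effect of long stress in rodents. The series' title concerns TrkB (the BDNF receptor, a growth factor receptor of neurons) and resilience to such stress.

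The deposited table lists 31185 Ensembl gene IDs, each with a value per library read as FPKM (fragments scaled to the length of the gene model and to the mapped fragments of the library). Differences are on the log2(FPKM + 1) scale, CMS + saline minus control, and cover the 12155 genes whose mean over the 8 libraries reached 1 FPKM. On this scale the differences of low genes come out too small. None of the IDs could be paired with a gene symbol from the table used here (0 of 31185). Genes are therefore given by ID, at most 2 per direction in each comparison, and their functions are not described. For the same reason stress-hormone targets, cell type markers and the other gene lists were not evaluated. FPKM sums of the 4 libraries ran from 314079 to 352740, and the 10 highest genes took 5.95% to 7.04% of them. Absolute depth is unknown. With the control PFC library as 1, ratios of low values gave relative depths of 0.855 for CMS + saline PFC, 1.17 for control hippocampus and 1.03 for CMS + saline hippocampus.

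The tissue labels could not be checked by marker genes. In their place, genes were picked by their tissue difference in the MGO and luteolin libraries alone, which are outside the stress comparison. There, 280 genes were at least 2-fold higher in PFC in both treatments, and 221 were at least 2-fold higher in hippocampus. Of the 280 genes, 247 were also higher in PFC in the control rat and 246 in the CMS + saline rat. Of the 221 genes, 191 and 187 were likewise higher in hippocampus. The pairs of both rats thus differed in the same direction as the drug-treated pairs. A swap of the tissue labels in every pair would give the same counts, so which tissue is which was not checked. The median PFC-minus-hippocampus difference of the 280 genes was 1.29 in the control rat and 1.04 in the CMS + saline rat. For the 221 genes it was -1.44 and -1.27.

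Under stress, 176 of the 280 PFC-high genes were lower in PFC (median difference -0.13, against -0.02 over all tested genes) and 103 were lower in hippocampus (median 0.07, against 0.00). Over all 12155 tested genes, 6479 were lower in PFC and 5971 in hippocampus. Of the 221 hippocampus-high genes, 135 were lower in hippocampus (median -0.08) and 101 were lower in PFC (median 0.04). The median of each set was thus slightly below that of all tested genes in its own tissue. With 1 library per group these shifts have no test, and the part of tissue sampling in them was not tested. Differences of at least 2-fold under stress were found in PFC for 14.3% of the PFC-high and 14% of the hippocampus-high genes, and in hippocampus for 9.64% and 14.5%. These shares lie above the 6.83% in PFC and 5.66% in hippocampus over all tested genes. Both sets were picked for 2-fold differences between single libraries, and the part of that choice in the higher shares was not tested.

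The stress difference shared by the tissues was tested with limma on the 4 libraries, with tissue as a block. This leaves 1 residual degree of freedom, so a p-value measures how far the difference varied between the tissues of the same animals, not between animals. Of 12155 genes, 0 (0%) passed an adjusted p of 0.05 (limma, Benjamini-Hochberg), and the lowest adjusted p was 0.134. At an unadjusted p of 0.05, 517 genes (4.25%) were reached, of which 333 (2.74%) were higher and 184 (1.51%) lower under stress. No individual gene is therefore called from these 4 libraries.

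The 2 genes with the lowest p that were higher under stress had different patterns in the drug-treated rats. In the control rat, ENSRNOG00000055319 read 0.318 FPKM in PFC and 0.72 FPKM in hippocampus, and in the CMS + saline rat it read 264 and 293 FPKM. Its log2 difference was 7.53 (SE 0.12), with an adjusted p of 0.134 in limma. Among the stressed rats given drugs it was near the control level in 3 libraries, at 0.468 and 0.853 FPKM with MGO and 0.593 FPKM in luteolin PFC, but reached 225 FPKM in luteolin hippocampus. The luteolin libraries therefore held both the low and the high level of this gene. ENSRNOG00000057823 read 0.345 FPKM in PFC and 0.131 FPKM in hippocampus of the control rat, and in the CMS + saline rat it read 62.9 and 62.7 FPKM. Its log2 difference was 5.69 (SE 0.14), again with an adjusted p of 0.134 in limma. It was high in the 4 drug libraries as well, from 45.7 to 107 FPKM, so both libraries of the unstressed rat lay below all 6 libraries of stressed rats. When limma was fitted to all 8 libraries, ENSRNOG00000057823 passed (adjusted p = 0.00249), and ENSRNOG00000055319 did not (adjusted p = 0.846).

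The 2 genes with the lowest p that were lower under stress were both listed at 0 in PFC and hippocampus of the CMS + saline rat, so no fold is given. ENSRNOG00000055068 read 129 FPKM in PFC and 169 FPKM in hippocampus of the control rat. It reached 200 FPKM in MGO hippocampus and 132 FPKM in luteolin PFC, but was listed at 0 in MGO PFC and luteolin hippocampus. In the control rat, ENSRNOG00000005347 read 64.7 FPKM in PFC and 54.1 FPKM in hippocampus. It reached 44.9 FPKM in MGO hippocampus and 54.3 FPKM in luteolin hippocampus, but was listed at 0 in PFC with either drug. Both genes thus took a high value in 1 tissue and 0 in the other within the same drug treatment. Their adjusted p in limma was 0.134 for the 4 libraries and 0.966 for all 8.

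**Figure D1:**
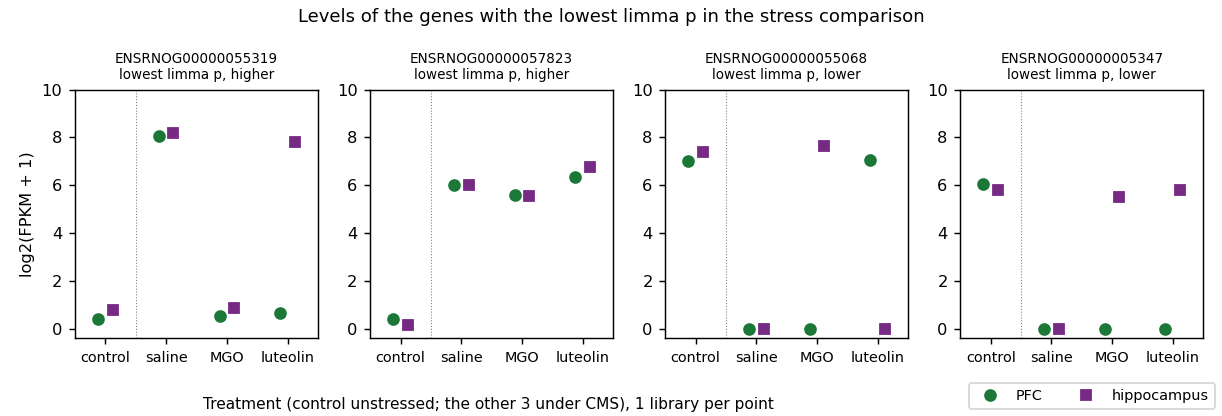
Level in log2(FPKM + 1) of the 4 genes with the lowest limma p, by treatment, with circles for PFC and squares for hippocampus (1 library per point). ENSRNOG00000057823 is low in both control libraries and high in all 6 libraries of stressed rats, while the other 3 genes take high and low levels within a drug treatment.

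The fit to all 8 libraries takes its residual from 3 degrees of freedom, which include how tissue differences varied among the drug-treated rats. Control and CMS + saline are still a single animal each, so its p-values do not measure variation between animals either. The fit called 19 genes (0.156%) between CMS + saline and control at an adjusted p of 0.05 in limma. Of these, 12 (0.0987%) were higher and 7 (0.0576%) lower under stress. Their adjusted p in limma ran from 0.00249 to 0.0383. Their log2 differences ran from 1.70 to 6.12 in size, with a median of 2.74. All 19 were past 2-fold in the same direction in PFC and hippocampus. The call uses the same libraries and favours large differences alike in both tissues, so this is no separate support. Of the 19, 14 had a mean of 10 FPKM or more, where the median over all tested genes was 8.26 FPKM. Without the luteolin hippocampus library 14 genes were called, of which 8 are among the 19, and the balance turned to 6 higher and 8 lower.

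Genes were then counted by size of difference, with no test. In PFC, 830 genes (6.83%) were past 2-fold, with 476 of them higher in the stressed rat (3.92%) and 354 lower (2.91%). For hippocampus the count was 688 (5.66%), with 385 higher (3.17%) and 303 lower (2.49%). The middle of the distribution was also wider in PFC. The robust SD (scaled median absolute deviation) of all differences was 0.29 in PFC and 0.20 in hippocampus, and 58.5% of genes in PFC and 73.4% in hippocampus were within 0.25 of no change. Whether the tissues differ in their response cannot be tested with 1 library per group.

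With the same direction in PFC and hippocampus, 133 genes (1.09%) were past 2-fold, 86 higher (0.708%) and 47 lower (0.387%) under stress. With opposite directions, 115 genes (0.946%) were, 61 higher in PFC and lower in hippocampus (0.502%) and 54 the other way (0.444%). The 133 genes are 16.0% of the PFC genes and 19.3% of the hippocampus genes past 2-fold. The opposite genes are 13.9% and 16.7% of them. Over all tested genes, 5.66% were past 2-fold in hippocampus and 6.83% in PFC, in either direction. The same-direction and the opposite overlap thus both lay above those shares, and the reason was not tested. At 1.5-fold the counts were 300 in the same direction and 210 in opposite directions, at 4-fold 53 and 31, and at 8-fold 22 and 10. Genes in the same direction outnumbered those in opposite directions at each of these 4 sizes. The sizes are nested, as a gene past 8-fold is counted at the smaller sizes too. A gene past 2-fold in PFC had the same sign in hippocampus in 459 of 830 cases (55.3%). For a gene past 2-fold in hippocampus, PFC had the same sign in 369 of 688 cases (53.6%). A difference of exactly 0 counted as not having the same sign. The share with the same sign over all tested genes was not counted, so these shares have no base to be set against.

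**Figure D2:**
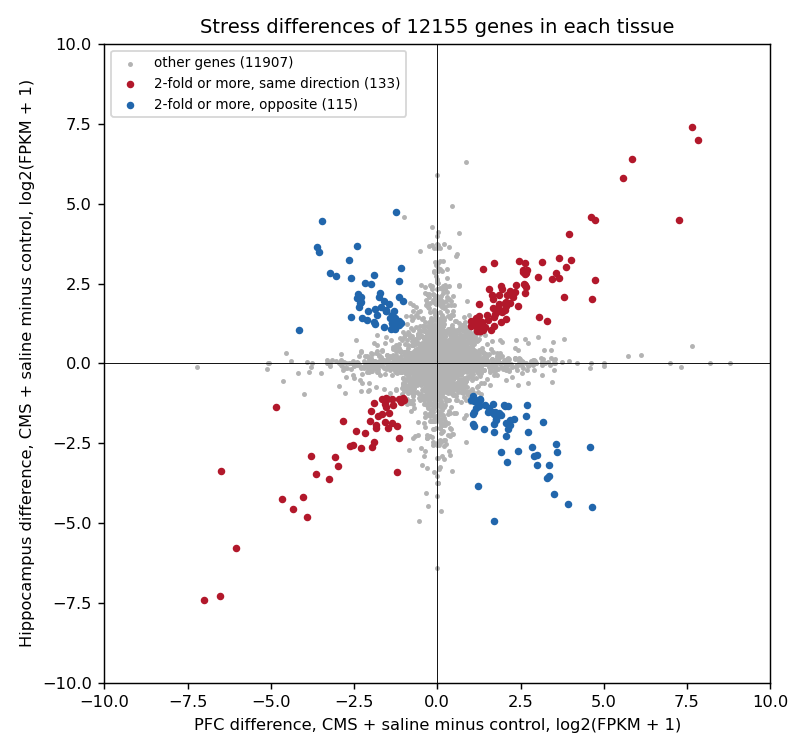
Difference between CMS + saline and control in PFC (x axis) and in hippocampus (y axis), both in log2(FPKM + 1), with 1 point per gene. The 133 genes past 2-fold in the same direction lie in the lower left and upper right, the 115 opposite genes lie in the other corners, and many of the remaining points spread along the axes.

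The genes past 2-fold in the same direction had a median level of 8.94 FPKM, against 8.26 FPKM over all tested genes. The 86 higher genes had a median level of 10.4 FPKM, with median differences of 2.04 in PFC and 1.96 in hippocampus. The 47 lower genes had a median level of 8.26 FPKM, with median differences in size of 1.91 and 2.01. Of the 86, 47 were at 1 FPKM or above in all 4 libraries, while 26 were under 1 FPKM in both control libraries, 4 of them listed at 0 there. Of the 47, 24 were at 1 FPKM or above in all 4 libraries, while 18 were under 1 FPKM in both CMS + saline libraries, 8 of them listed at 0 there. Some of these genes thus went between a low or unlisted level and a clear one, and more of them stayed at 1 FPKM or above. The same levels were not counted over all tested genes, so whether these counts are particular to the set is unknown.

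Differences past 2-fold were found at every level of expression. In PFC their share was 5.37% at 1 to 2 FPKM, 7.28% at 2 to 5 FPKM, 6.98% at 5 to 10 FPKM, 6.52% at 10 to 30 FPKM, 7.67% at 30 to 100 FPKM and 7.69% (44 of 572) at 100 FPKM or more. In hippocampus it was 4.31%, 6.40%, 5.96%, 6.16%, 4.96% and 3.67% (21 of 572) in the same order. The PFC share thus showed no steady trend with level, and the hippocampus share was highest at 2 to 5 FPKM. Of the 572 genes at 100 FPKM or more, 2 were past 2-fold in both tissues with the same sign and 5 with opposite signs. The precision of low values is unknown without read counts.

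**Figure D3:**
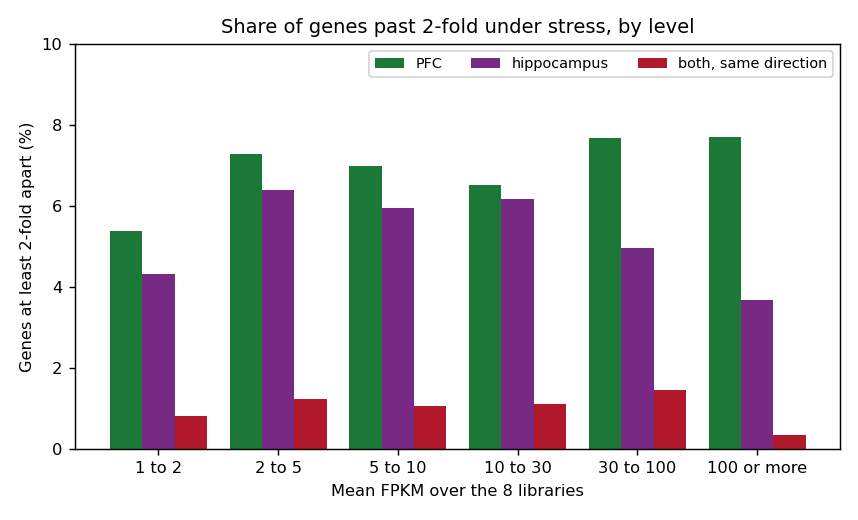
Percentage of genes at least 2-fold apart between CMS + saline and control, by mean FPKM over the 8 libraries, with bars for PFC, hippocampus and both tissues in the same direction. The PFC bars stay between 5.37% and 7.69%, and the hippocampus bar is lowest, at 3.67%, for the genes at 100 FPKM or more.

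The drug-treated rats were under the same stress protocol, and their values for the 133 genes were set beside the others. Each drug library was placed by whether its value was closer to the CMS + saline or to the control library of its tissue, on the log2(FPKM + 1) scale. These placements use the libraries that chose the genes and are a description. They were not made for all tested genes, so whether the counts are particular to the 133 genes is unknown. With MGO, 42 genes were closer to CMS + saline in both tissues, 39 were closer to control in both, and 52 (39.1%) were split between the tissues. With luteolin, 35 genes were closer to CMS + saline in both tissues, 40 were closer to control in both, and 58 (43.6%) were split. Of the 86 higher genes, 32 were split with MGO and 37 with luteolin. Of the 47 lower genes, 20 and 21 were. A gene that is split lies on different sides of the midpoint in the tissues, which need not be a large difference in level. The protocol has both tissues of the MGO rat come from 1 animal, and it names no luteolin rat.

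Genes past 2-fold in one tissue were less often near no change in the other than genes in general. Of the 830 PFC genes, 391 (47.1%) differed by less than 0.25 in hippocampus, against 73.4% of all tested genes. Of these 391, 219 were higher and 172 lower in PFC under stress. Of the 688 hippocampus genes, 254 (36.9%) differed by less than 0.25 in PFC, against 58.5% of all tested genes, with 139 higher and 115 lower in hippocampus. Genes past 2-fold in PFC had a median difference in size of 0.28 in hippocampus, against 0.13 over all genes, and those past 2-fold in hippocampus had one of 0.45 in PFC, against 0.20.

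The largest rises of this kind in PFC were of genes listed at 0 in both control libraries. In the CMS + saline rat, ENSRNOG00000030963 read 443 FPKM in PFC and was listed at 0 in hippocampus. With MGO it reached 646 FPKM in PFC and 535 FPKM in hippocampus, and with luteolin it was listed at 0 in both. It was thus high in 3 of 8 libraries, from 2 of the stressed rats. ENSRNOG00000029410 read 293 FPKM in PFC of the CMS + saline rat and was listed at 0 in the other 7 libraries. The adjusted p in limma was 0.839 for both genes.

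The largest falls in PFC started from a high or moderate control level. ENSRNOG00000016322 read 316 FPKM in PFC and 0.613 FPKM in hippocampus of the control rat, and in the CMS + saline rat it read 1.13 and 0.491 FPKM. Its log2 difference in PFC was -7.22. With MGO it read 1.37 FPKM in PFC and 0.467 FPKM in hippocampus, and with luteolin 269 and 0.419 FPKM. This gene was high in 2 of 4 PFC libraries and low in every hippocampus library. ENSRNOG00000002387 read 33.7 FPKM in PFC and 0.31 FPKM in hippocampus of the control rat, and in the CMS + saline rat it was listed at 0 in PFC and read 0.155 FPKM in hippocampus. With MGO it read 1.97 FPKM in PFC and 0.334 FPKM in hippocampus, and with luteolin it was listed at 0 in PFC and read 40.9 FPKM in hippocampus. Its high values were thus in PFC of the control rat and in hippocampus with luteolin.

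In hippocampus, ENSRNOG00000028436 read 58.7 FPKM in the CMS + saline rat and was listed at 0 in the other 7 libraries. ENSRNOG00000029798 read 23.5 FPKM in PFC and 0.0213 FPKM in hippocampus of the control rat, and in the CMS + saline rat it read 20.9 and 18.8 FPKM. Its log2 difference in hippocampus was 4.28. With MGO it read 0.226 FPKM in PFC and 18.7 FPKM in hippocampus, and with luteolin 23 and 1.11 FPKM. The CMS + saline rat was thus the one with the high level of this gene in both tissues.

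The falls in hippocampus ended at 0. ENSRNOG00000021745 was listed at 0 in hippocampus of the CMS + saline rat and in all 4 PFC libraries. Its other hippocampus values were 83.6 FPKM in control, 103 FPKM with MGO and 72.1 FPKM with luteolin, so the CMS + saline library was the low one of 4. ENSRNOG00000053557 was also listed at 0 in hippocampus of the CMS + saline rat, where PFC read 24.5 FPKM. In the control rat it read 22.5 FPKM in PFC and 23.7 FPKM in hippocampus. It was listed at 0 in MGO PFC and ran from 21.7 to 25.7 FPKM in the other 3 drug libraries, so it took either 0 or a value near those of control.

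**Figure D4:**
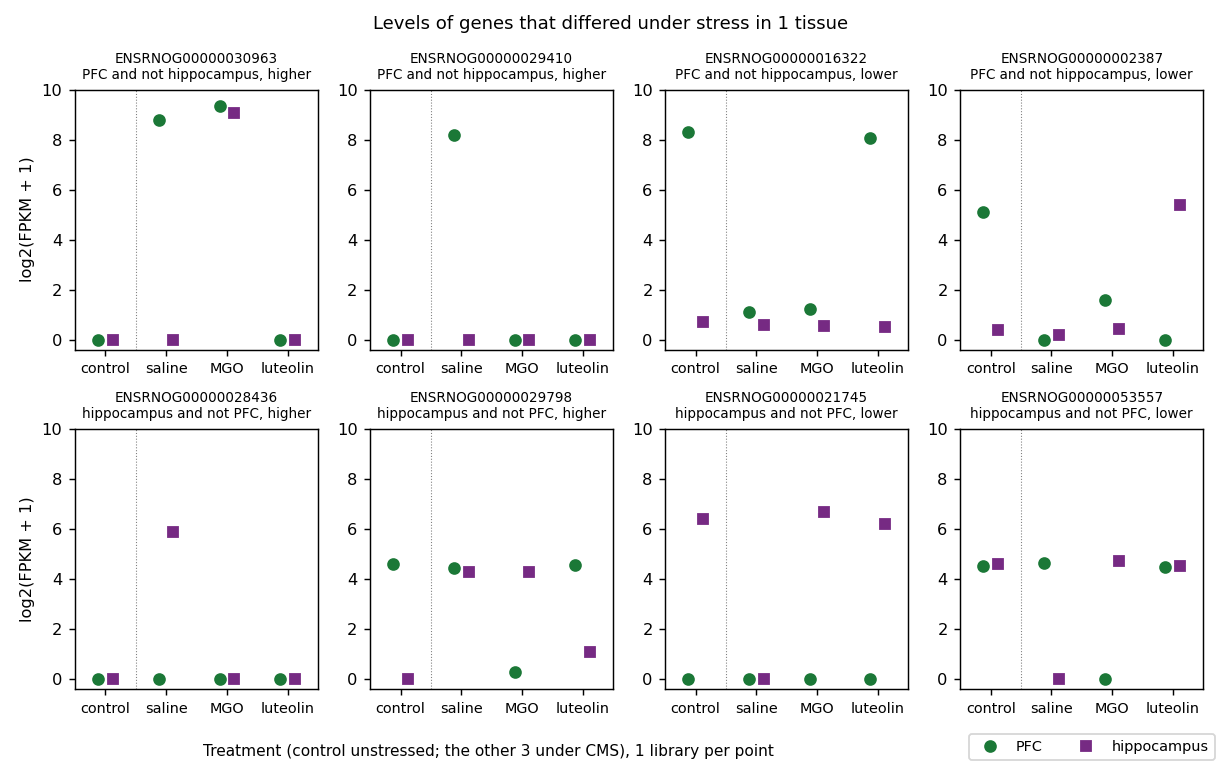
Level in log2(FPKM + 1), by treatment, of the genes with the largest stress difference in PFC (upper row) or in hippocampus (lower row) among those within 0.25 in the other tissue, with circles for PFC and squares for hippocampus (1 library per point). ENSRNOG00000029410 and ENSRNOG00000028436 are above 0 in a single library each, while the other genes are high in 2 or more libraries.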

How the data were processed

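RNA-seq was analysed from a gene table whose values, not whole and with differing sums, were read as FPKM from the authors. The header names no unit, and StringTie is among the tools. Per the submitters' processing notes, the authors used FastQC (0.11.5), HISAT2 (2.0.4) and StringTie (1.2.4), with Rnor_6.0 (rn6) as build. Roles, annotation and filters are not stated there. All 8 value columns were matched by title.

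Genes averaging 1 FPKM or more across the 8 libraries were tested with limma 3.58.1 in R 4.3.3 on log2(FPKM + 1) across all genes (two-sided, variance trend, tissue block, Benjamini-Hochberg). SEs are moderated towards other genes. Counts at 2-fold have no test. Simulated data of 12155 genes had normal noise, with a spread drawn from limma's own fit, and an equal shift in both tissues. They held no variation between animals and no genes switching to 0. There limma called 0% of 100 genes changed by 1 and 61% of 100 changed by 4 (log2), with 3 false calls. Recovery and false calls in the real libraries may differ from this. Relative depth is the most frequent ratio of values under 0.2 FPKM. The rule for named genes took the lowest limma p in each direction, the largest difference in 1 tissue with under 0.25 in the other, and the largest opposite difference. It was limited to 2 IDs per direction because no ID had a symbol, so 34 gene lists and 23 fixed genes were not evaluated. The members, lists and rules were chosen with earlier results of these data known. The tissue-difference genes and the placing of drug libraries were added after the data were seen. Alternatives changed the pseudocount, filter, scaling, fold, block, variance trend and libraries fitted. Figures were drawn in Python 3.11.15 with matplotlib 3.10.9.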

Additional observations from a re-analysis of the deposited data

Results flagged for a closer look

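PFC and hippocampus went opposite ways under stress, each past 2-fold, for 115 genes. ENSRNOG00000036971 led those higher in PFC. In the control rat it read 0.423 FPKM in PFC and 35.2 FPKM in hippocampus, and in the CMS + saline rat 34.4 and 0.602 FPKM, log2 differences of 4.64 and -4.50. With MGO it read 25.2 FPKM in PFC and 0.679 FPKM in hippocampus, and with luteolin 6.91 and 26.6 FPKM. ENSRNOG00000016399 led those lower in PFC. In the control rat it read 11.9 FPKM in PFC and was listed at 0 in hippocampus, and in the CMS + saline rat it read 0.0525 and 11.5 FPKM. With MGO it read 11.8 FPKM in PFC and 0.0178 FPKM in hippocampus, and with luteolin it was listed at 0 in PFC and read 9.79 FPKM in hippocampus. In each of the 4 treatments ENSRNOG00000016399 was high in a single tissue. These differences between tissues were not tested, since each group has 1 library.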

How the results depend on the processing

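In limma over the 4 libraries, 0 genes passed with a pseudocount of 0.1 or 5, median-ratio size factors or no variance trend. The same held with no filter, a minimum mean of 5 or a filter over the 4 libraries. At an unadjusted p of 0.05 in limma, 356 genes were reached at a minimum mean of 5. With no filter 1124 of 31185 were, against 517 of 12155 in the main fit. The filters test different numbers of genes, so these counts cannot be compared as they stand. Without the tissue block 11 passed (5 higher, 6 lower), with all 8 libraries 19, and, as alternatives chosen after seeing the data, 14 without the luteolin hippocampus library and 13 for the mean of the 3 stressed treatments against control (10 of them among the 19). The cause of these changes was not tested. Counts past 2-fold in PFC, in hippocampus and in both in the same direction were 459, 370 and 71 with a pseudocount of 5. With a pseudocount of 0.1 they were 1106, 896 and 193. They were 553, 451 and 88 at a minimum mean of 5 and 376, 300 and 61 at a minimum mean of 10, where fewer genes are tested. At 1.5-fold they were 1735, 1280 and 300. More genes were higher than lower in each of these counts. The median over all genes in PFC was -0.02, and -0.01 with size factors. Of 28 single-gene differences, 13 moved by more than the gene's residual SD with a pseudocount of 0.1 and 0 with size factors, with no change of sign past 2-fold. That SD rests on 1 residual degree of freedom and grows with the gap between the tissues. It is thus wide for genes picked for differing in 1 tissue or in opposite directions. The gene lists could not be evaluated without symbols. The tissue block pairs the libraries by tissue, but with 1 animal per group it does not separate animal from treatment.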
